A study of Mus musculus with 4 samples.

Results

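Interferon-stimulated effector genes encode the proteins with which a cell that has sensed interferon restricts viruses and intracellular microbes. The members were the 45 rows of the gene count table whose symbol equalled an entry of a fixed list, out of 54532 genes in all, and 42 of the 45 had enough reads to be tested. They were followed in alveolar macrophages (AMs), which live in the air spaces, purified from the lungs of wild-type (WT) female mice. By the methods, WT animals were BALB/c mice of 8 to 10 weeks of age. The Control group comprised 2 libraries from animals that carried no tumor, and the Tumor group comprised 2 libraries from animals inoculated 2 weeks earlier with the breast cancer line 4T1, which arose in a mouse mammary gland. It was not stated whether a library came from 1 mouse or a pool, so p-values measure the spread between these libraries, which may be technical. With 2 libraries against 2, no permutation of labels could reach a p of 0.05 (the smallest two-sided value is 0.333), and all calls below rest on a model fitted across all genes.

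Type I interferons signal through IFNAR1 and IFNAR2, and the kinases JAK1 and TYK2 activate a complex with STAT2 and IRF9 that binds the interferon-stimulated response element (ISRE) upstream of its targets. Interferon gamma signals through its own receptor, acts at the gamma-activated site (GAS) and induces the guanylate-binding proteins (GBPs) and the immunity-related GTPases (IRGs). AMs meet inhaled viruses first, and genes of this kind are known to be induced in them after infection.

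The promoters of the members were examined first, because the ISRE is the sequence by which such genes are usually recognised. RefSeq windows on GRCm38.p6, spanning 250 bases before to 50 bases after the annotated start, were matched for 35 of the 45 members. The ISRE core was searched as GAAA, any 2 bases, GAAA, and the GAS core as TTCNNNGAA, both on either strand. At least 1 ISRE core lay in the windows of 21 of 35 members (60%), against 3.99% of all 27025 genes with a window. A GAS core lay in 12 of 35 (34.3%), against 9.55% of all genes. Both motifs were found for 7 members and neither for 9. A match is a description of the letters and not of binding. Of the 9 members higher in Tumor with an ISRE core, 4 were selected to stand for different role groups, and the stretches around their cores are given below 5′ to 3′ on the gene's strand, with the core in capitals. No base of an annotated exon of the gene is included, and overlapping cores are capitalised as a single run.
Isg15 (chr4:156200850-156200921, minus strand): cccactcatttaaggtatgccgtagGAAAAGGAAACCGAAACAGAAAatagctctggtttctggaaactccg
Oas3 (chr5:120777700-120777759, minus strand): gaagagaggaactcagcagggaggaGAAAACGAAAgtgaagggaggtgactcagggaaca
Ifitm2 (chr7:140955988-140956032, minus strand): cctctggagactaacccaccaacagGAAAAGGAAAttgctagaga
Igtp (chr11:58199497-58199555, plus strand): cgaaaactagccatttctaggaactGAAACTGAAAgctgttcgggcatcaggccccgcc

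The same core was present in members that did not pass the test, or had too few reads for it, and in Gbp5, which was lower in Tumor. A selection of 6 is set beside the first group, and it does not stand for all members. Of the members with a window, 9 of 17 called higher (52.9%) held an ISRE core, as did 6 of 11 not called (54.5%) and 3 of 4 called lower. These shares leave out the members without a window. Those were Oas2, Usp18, Ly6e, Iigp1 and Rtp4 (higher), Mx1, Mx2 and Zbp1 (not called), and Dhx58 and Parp14 (lower). The stretches of Ifit3 and Ifit3b, neighbouring copies on chromosome 19, were identical over all 94 bases. The Gbp5 stretch lies inside the deposited gene span, upstream of a start that RefSeq places within it.
Ifit1 (chr19:34640760-34640838, plus strand): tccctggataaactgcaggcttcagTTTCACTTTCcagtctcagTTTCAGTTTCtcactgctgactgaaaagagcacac
Ifit3 (chr19:34583348-34583441, plus strand): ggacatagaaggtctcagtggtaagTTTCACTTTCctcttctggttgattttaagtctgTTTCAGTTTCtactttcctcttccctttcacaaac
Ifit3b (chr19:34607744-34607837, plus strand): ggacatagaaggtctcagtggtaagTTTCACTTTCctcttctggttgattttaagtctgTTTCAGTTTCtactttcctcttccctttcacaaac
Rsad2 (chr12:26456538-26456597, minus strand): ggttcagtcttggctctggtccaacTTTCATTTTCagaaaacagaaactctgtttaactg
Bst2 (chr8:71537562-71537627, minus strand): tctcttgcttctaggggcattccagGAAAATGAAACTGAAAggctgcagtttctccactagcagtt
Gbp5 (chr3:142496744-142496803, plus strand): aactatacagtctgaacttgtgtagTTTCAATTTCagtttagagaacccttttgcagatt

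Ifitm1, the member with the largest change, held neither motif in its window. The 120 bases printed for it end just before its first annotated exon in that window, and they lie within the deposited gene span, which opens further upstream. Oasl1 and Oasl2, both higher in Tumor, also held neither.
Ifitm1 (chr7:140967908-140968027, plus strand): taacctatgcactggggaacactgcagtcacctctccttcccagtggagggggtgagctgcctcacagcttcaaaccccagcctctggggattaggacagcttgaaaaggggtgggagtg

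Library totals were 16167147 to 19205737 counts. Levels are given as CPM, counts scaled to a common library total with TMM factors, and as CPM per kilobase of deposited gene length where genes are compared with each other. Counting 3 reads as the floor, a level below 0.153 to 0.190 CPM was not distinguishable from absence. The members together took 0.124% of each Control library, against 0.193% of Tumor 1 and 0.192% of Tumor 2. Their summed level went from 1268 and 1267 CPM to 1893 and 1874 CPM.

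The members did not move as a block. At an adjusted p below 0.05, 22 of the 42 tested were higher in Tumor and 6 were lower, while 14 did not pass the test. Across all 14256 genes tested, 53.8% were called in either direction, 29.0% higher and 24.8% lower, so 52.4% of the members against 29.0% were higher and 14.3% against 24.8% were lower. An increase of 2-fold or more was called for 15 members, against 12.9% of all genes, and a decrease of that size for 0 members, against 3.01%. Median log2 fold changes were 0.52 over members and 0.02 over all genes. The members were chosen with earlier results of these data known, so these shares describe a list and do not test it. Both Tumor libraries lay above both Control libraries for 29 members (39.3% of all genes did so) and below them for 6 (35.8% of all genes). The libraries overlapped for the other 7, namely Ifit1, Herc6, Rsad2, Cmpk2, Bst2, Gbp7 and Ifi35. Of 21 members with at least 100 counts in every library, 9 were higher, 6 lower and 6 not called, while of the 12 tested members under 100 counts in every library 4 were higher. The shares of all genes at these count levels were not computed, so this split describes read depth and is no result about the members.

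**Figure D1:**
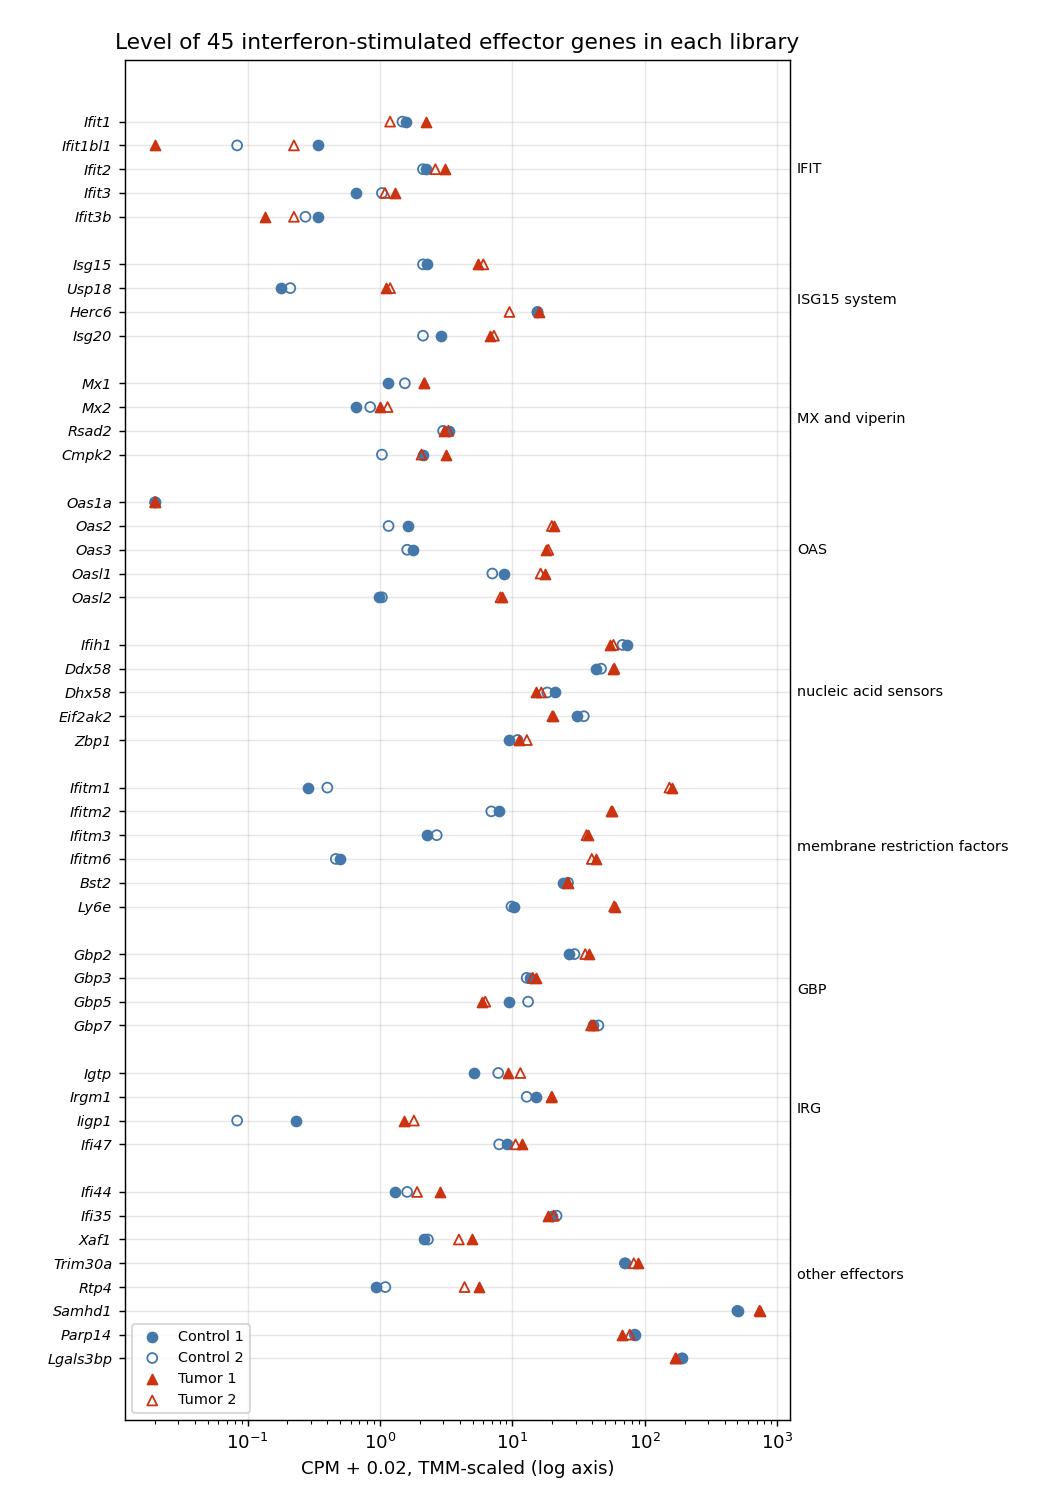
Level of each of the 45 members in each library (x axis, CPM + 0.02 on a log axis, y axis, genes ordered by role group), with circles and triangles for the Control and Tumor libraries and filled and open symbols for replicates 1 and 2. The Ifitm genes, Oas2 and Oas3 show Tumor symbols far to the right of Control symbols, whereas Ifit1, Rsad2 and Bst2 overlap, and Oas1a lies at 0 counts in all libraries.

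The purity of these bulk libraries bears on each value below. All 12 neutrophil markers rose, from a summed 113.9 and 113.7 CPM to 4511 and 4495 CPM. All 5 eosinophil markers rose, from 0.480 and 0.507 to 2224 and 2204 CPM. The 8 hepatocyte markers, transcripts of liver cells, rose from 0.107 and 0.253 to 629.9 and 633.2 CPM. Several defining markers of these cells were at or near 0 in Control and abundant in Tumor, such as Elane (0, 0, 381 and 448 counts), Prg2 (1, 1, 28344 and 32089 counts) and Alb (0, 0, 8036 and 9358 counts). The sum of the 14 AM identity genes was high in all libraries, at 16427 and 16572 CPM in Control and 12565 and 12707 CPM in Tumor. Of these genes 12 were lower in Tumor, and the lowest in level was Fabp4 (25.3 against 5.79 CPM). Of 6 basophil and mast cell markers 5 could be tested and all 5 were higher, with sums of 0.267 and 0.317 CPM in Control and 55.7 and 50.5 CPM in Tumor. Of 6 B cell markers 5 were higher, with sums of 21.6 and 19.5 against 43.1 and 45.6 CPM. Of 8 T and NK cell markers 6 could be tested and 4 were higher, with sums of 9.76 and 10.3 against 25.5 and 27.1 CPM. Monocyte markers summed to 921.5 and 935.0 CPM in Control and to 723.9 and 715.8 CPM in Tumor, with 3 of 7 higher and 2 lower. Nr4a1, which macrophages also express, made up most of that sum (838.3 against 615.5 CPM), while Plac8 was 26.9-fold, Ccr2 2.52-fold and F13a1 1.66-fold higher, and Treml4 was lower (53.6 against 25.2 CPM). Of the markers of plasmacytoid dendritic cells, specialised producers of type I interferon, 0 of 4 tested were higher and 1 was lower, and their sum was 27.3 and 27.8 CPM in Control and 19.6 and 19.1 CPM in Tumor. Most of that sum was Tcf4 (23.3 against 15.6 CPM), which other cells also express and which was the gene called, while Siglech (1.44 against 1.25 CPM) and Ccr9 (1.07 against 0.863 CPM) did not pass. Whether less RNA per cell or fewer cells of a type underlay a lower level cannot be told apart in bulk samples. The part of other cells in the changes of the members was not tested. Scaling the libraries on the AM identity genes instead of all genes moved the median of all genes by 0.44 on the log2 scale, and 65.9% of all genes were called higher under it and 6.08% lower. It called 33 of the 42 tested members higher (78.6%) and 2 lower, and members with small decreases changed direction, as given for each below.

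**Figure D2:**
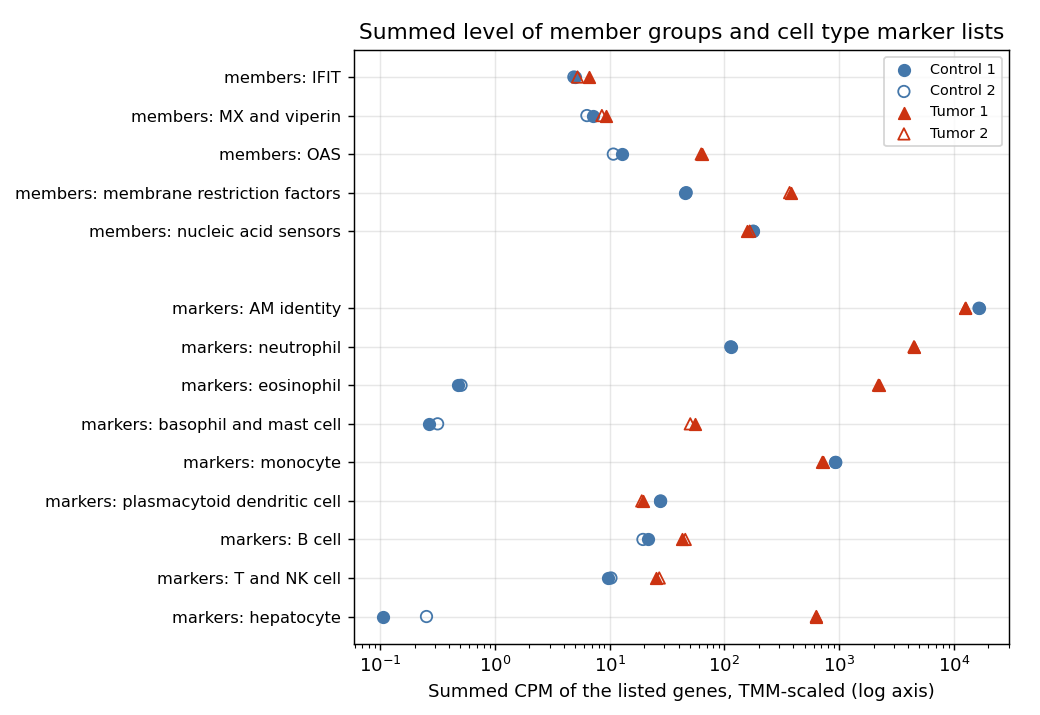
Summed level of 5 member groups and of the cell type marker lists in each library (x axis, summed CPM on a log axis, y axis, lists), with 1 symbol per library. The membrane restriction factors and the OAS group are higher in Tumor, whereas the IFIT and MX groups stay between 4.88 and 9.24 CPM in all 4 libraries. The neutrophil, eosinophil, basophil and mast cell, B cell, T and NK cell and hepatocyte lists are also higher. The AM identity, monocyte and plasmacytoid dendritic cell sums are lower.

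The IFIT proteins bind viral RNA that lacks the host cap and are textbook markers of a type I interferon response. None of the 3 that could be tested passed, whereas 53.8% of all genes did. Ifit1 had 29 and 23 counts in Control and 38 and 23 in Tumor, with a log2 fold change of 0.14 (95% interval -0.59 to 0.88, adjusted p = 0.763). The Tumor libraries straddled the Control libraries. Ifit2 had 41 and 33 against 53 and 51 counts, with a log2 fold change of 0.40 (95% interval -0.15 to 0.94, adjusted p = 0.218). Ifit3 had 12 and 16 against 22 and 21 counts, with a log2 fold change of 0.51 (95% interval -0.38 to 1.40, adjusted p = 0.335). In both genes the Tumor libraries lay slightly above the Control libraries, and the intervals spanned 0. Ifit2 passed as higher under scaling on AM identity genes (0.84, adjusted p = 0.00681), where the median of all genes stood at 0.46. Ifit1bl1 (6, 1, 0 and 4 counts in Control 1, Control 2, Tumor 1 and Tumor 2) and Ifit3b (6, 4, 2 and 4 counts) fell below the count filter. The group summed to 5.01 and 4.88 CPM in Control and 6.64 and 5.25 CPM in Tumor. Ifit3 and Ifit3b are close copies, and the counting of reads that match both was not given in the sources used here, so their split is uncertain.

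Mx1 and Mx2, dynamin-like GTPases that block incoming viruses, viperin (Rsad2), an enzyme that makes a chain-terminating nucleotide, and its genomic neighbour Cmpk2, a nucleotide kinase, gave 0 calls among 4 tested, beside 53.8% of all genes called. Rsad2 had 62 and 47 counts in Control and 52 and 64 in Tumor, or 3.14 ± 0.233 and 3.13 ± 0.183 CPM (SD, n = 2). Its log2 fold change was -0.01 (95% interval -0.49 to 0.48, adjusted p = 0.984), so a change of 2-fold in either direction lay outside the interval. Mx1 had 21 and 24 against 37 and 42 counts, and its log2 fold change of 0.71 just missed the threshold (95% interval 0.03 to 1.38, adjusted p = 0.0715). It passed when raw totals were used as library sizes (adjusted p = 0.0487), with at least 10 counts required in every library (adjusted p = 0.0452) and under scaling on AM identity genes (1.14, adjusted p = 0.00284). Mx2 had 12 and 13 against 17 and 22 counts (log2 fold change 0.53, adjusted p = 0.331). Cmpk2 varied within each group, at 39 and 16 against 54 and 40 counts (log2 fold change 0.69, adjusted p = 0.0783). Leaving out Control 1 gave Cmpk2 a log2 fold change of 1.33 (adjusted p = 0.0122) and leaving out Tumor 2 gave 0.98 (adjusted p = 0.0104), and both passed. It also passed with the replicate number as a block (adjusted p = 0.0492), with at least 10 counts in every library (adjusted p = 0.0486) and under scaling on AM identity genes (1.13, adjusted p = 0.00340).

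The OAS proteins make the oligoadenylate that activates RNase L, an activity that OASL1 lacks. All 4 members that could be tested rose in Tumor (29.0% of all genes did so), with a median log2 fold change of 3.24. Oas2 had 30 and 18 counts in Control and 358 and 389 in Tumor. Its level went from 1.37 ± 0.325 to 20.2 ± 0.600 CPM (SD, n = 2), a 14.5-fold increase (log2 fold change 3.86, SE 0.181, adjusted p = 1.07e-16). Oas3, which lies beside it on chromosome 5, had 33 and 25 against 308 and 366 counts, a 10.8-fold increase (log2 fold change 3.44, SE 0.175). In both genes the Tumor libraries stood far above both Control libraries. Oasl2 had 18 and 16 against 144 and 159 counts, an 8.28-fold increase (log2 fold change 3.05, SE 0.238). Oasl1, whose product dampens translation of Irf7, had 161 and 111 against 303 and 320 counts, a 2.15-fold increase (log2 fold change 1.10, SE 0.133, adjusted p = 5.38e-08). Oas1a was listed at 0 counts in all 4 libraries. The summed OAS level went from 12.9 and 10.8 to 64.3 and 62.9 CPM.

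ISG15 is a ubiquitin-like modifier, USP18 removes it from proteins and blunts signalling at IFNAR2, HERC6 attaches it in the mouse, and ISG20 is a nuclease of single-stranded RNA. Isg15 had 42 and 33 counts in Control and 95 and 118 in Tumor, and rose 2.65-fold, from 2.17 ± 0.106 to 5.75 ± 0.373 CPM (SD, n = 2, log2 fold change 1.40, SE 0.220, adjusted p = 4.00e-06). Isg20 had 54 and 33 against 116 and 142 counts (log2 fold change 1.47, SE 0.211, adjusted p = 9.93e-07). Usp18 stood at the floor in Control, at 3 counts in each library, against 19 and 23 in Tumor, and was at least 5.77-fold higher, taking the lower Tumor library against the higher Control floor (adjusted p = 0.000432). The groups did not overlap for these 3 genes. Herc6 had 285 and 244 against 277 and 186 counts, with the Tumor libraries apart from each other (log2 fold change -0.28, adjusted p = 0.135). Its value hung on single libraries, being -0.69 without Tumor 1 (adjusted p = 1.02e-05) and 0.06 without Tumor 2 (adjusted p = 0.729).

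The membrane restriction factors showed the largest changes of all members, with 5 of 6 higher (83.3%, against 29.0% of all genes) and a median log2 fold change of 3.41. The IFITM proteins sit in plasma and endosomal membranes and hinder fusion of enveloped viruses, and 4 of their genes lie in a cluster on chromosome 7, from 140954837 to 141017924. Ifitm1 had 5 and 6 counts in Control and 2762 and 3012 in Tumor. Its level went from 0.323 ± 0.0802 to 156.5 ± 4.24 CPM (SD, n = 2), a 480.5-fold increase (log2 fold change 8.91, SE 0.122, adjusted p = 3.67e-29). Ifitm6, the next in size, had 9 and 7 against 745 and 780 counts, an 87.9-fold increase (log2 fold change 6.46, SE 0.179). Both genes were nearly silent in Control. Ifitm3, the family member best known for restricting influenza virus, had 42 and 42 against 640 and 712 counts, a 15.0-fold increase (log2 fold change 3.91, SE 0.134). Ifitm2 had 148 and 109 against 971 and 1099 counts, a 7.53-fold increase (log2 fold change 2.91, SE 0.0958). Per length, Ifitm1 went from the lowest of the 4 in Control to the highest member of all 45 in Tumor, at 143 CPM per kilobase.

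Ly6e, a lipid-anchored protein that limits coronavirus entry, had 193 and 155 counts in Control and 1033 and 1151 in Tumor, a 5.87-fold increase (log2 fold change 2.55, SE 0.0876, adjusted p = 8.30e-20). Bst2 (tetherin), which holds budding virions at the cell surface, had 450 and 415 against 459 and 514 counts. Its log2 fold change was 0.07 (95% interval -0.11 to 0.25, adjusted p = 0.535), at 25.2 ± 1.62 and 26.4 ± 0.219 CPM (SD, n = 2), and it passed as higher only under scaling on AM identity genes (0.51). Ly6e and Bst2 thus gave different outcomes within this role group, although the difference between them was not tested. The group summed to 45.2 and 46.5 CPM in Control and to 381.7 and 370.4 CPM in Tumor. The granulocyte and hepatocyte markers given above were also higher in Tumor, but in a comparison of Control and Tumor alone a shared direction measures no association. The study describes AMs isolated for imaging and for RNA-seq together, and gives the imaged cells as CD45+, CD11b-, CD11c+ and SiglecF+. It gives no separate gate for the cells that were sequenced. Whether other cells supplied these transcripts was not tested.

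The cytosolic nucleic acid sensors were the 1 group with more members lower than higher. Of the 5 sensors, 3 were lower (60%, against 24.8% of all genes) and 1 was higher (20%, against 29.0%). Each had at least 172 counts in every library. Eif2ak2 (PKR), the kinase that halts translation on double-stranded RNA, had 581 and 546 counts in Control and 351 and 393 in Tumor, with a log2 fold change of -0.70 (SE 0.0900, adjusted p = 1.63e-07), and it stayed lower under scaling on AM identity genes (-0.26, adjusted p = 0.0121). Ifih1 (MDA5) had 1380 and 1070 against 938 and 1138 counts (log2 fold change -0.34, SE 0.0603, adjusted p = 2.90e-05), a direction that turned to 0.10 under that scaling (adjusted p = 0.130). Dhx58 (LGP2), a regulator of the RNA sensors, had 394 and 289 against 261 and 324 counts (log2 fold change -0.32, SE 0.109, adjusted p = 0.0156), which turned to 0.12 under that scaling (adjusted p = 0.329). Its call was lost without Control 1 (adjusted p = 0.251) or Tumor 1 (adjusted p = 0.0705). Ddx58 (RIG-I) went the other way, at 807 and 738 against 999 and 1155 counts (log2 fold change 0.38, SE 0.0653, adjusted p = 1.63e-05). Zbp1, a sensor of Z-form nucleic acid that triggers necroptosis, had 176 and 172 against 194 and 252 counts (log2 fold change 0.25, 95% interval -0.03 to 0.54, adjusted p = 0.125), and passed only without Tumor 1 (adjusted p = 0.0435) and under scaling on AM identity genes. The RNA sensors thus differed in direction, with Tumor libraries of Ddx58 above and of Ifih1, Dhx58 and Eif2ak2 below both Control libraries.

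The GBPs are large GTPases that coat vacuoles and bacteria, and 4 members lie in a row on chromosome 3, between 142493978 and 142638008. Gbp5, which also promotes inflammasome assembly, had 177 and 207 counts in Control and 102 and 122 in Tumor, with a log2 fold change of -0.89 (SE 0.165, adjusted p = 4.62e-05), and was lower under scaling on AM identity genes too (-0.45, adjusted p = 0.0178). Gbp2 had 499 and 464 against 659 and 696 counts (log2 fold change 0.39, SE 0.0824, adjusted p = 0.000190). Gbp3 had 255 and 202 against 260 and 279 counts (log2 fold change 0.14, adjusted p = 0.323), which became 0.58 and passed under that scaling. Gbp7 had 762 and 704 against 708 and 771 counts (log2 fold change -0.09, adjusted p = 0.337), which turned to 0.35 and passed under that scaling. Along the chromosome, from Gbp5 through Gbp7 and Gbp3 to Gbp2, the fold changes went from negative to positive. With 1 gene higher and 1 lower (25% each, against 29.0% and 24.8% of all genes), the group had no common direction, and these paralogs may share reads.

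All 4 IRG members were higher in Tumor (29.0% of all genes were), with a median log2 fold change of 0.60. These GTPases attack vacuoles of intracellular pathogens, and Irgm1 regulates the effector forms. Iigp1 (Irga6) had 4 and 1 counts in Control and 26 and 35 in Tumor, and was higher (adjusted p = 1.16e-05). Its mean Control level lay under the floor, so no fitted size is given, and the lower Tumor library stood 7.04-fold above the higher Control library. Igtp (Irgm3) had 96 and 123 against 159 and 225 counts (log2 fold change 0.70, SE 0.175, adjusted p = 0.00135), but 0.41 without Control 1, where the call was lost (adjusted p = 0.0916). Irgm1 had 283 and 202 against 341 and 390 counts (log2 fold change 0.50, SE 0.112, adjusted p = 0.000414). Ifi47 (Irg47) had 169 and 125 against 206 and 207 counts (log2 fold change 0.40, SE 0.143, adjusted p = 0.0205), and its call was lost without Control 2 (adjusted p = 0.175), without Tumor 1 (adjusted p = 0.107) and by DESeq2 (adjusted p = 0.129). Tumor libraries lay above Control libraries in all 4 genes.

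Of the 8 other effectors, 4 rose (50%, against 29.0% of all genes), 2 fell (25%, against 24.8%) and 2 did not pass. Rtp4, a chaperone-like protein with antiviral activity, had 17 and 17 counts in Control and 97 and 85 in Tumor, a 4.99-fold increase (log2 fold change 2.32, SE 0.281, adjusted p = 5.74e-08). Xaf1, a proapoptotic antagonist of XIAP, had 40 and 36 against 86 and 77 counts (2.01-fold, log2 SE 0.239, adjusted p = 0.000783). Samhd1, which hydrolyses the nucleotides needed for reverse transcription, had 9546 and 7894 against 12871 and 14420 counts. Its level went from 504.7 ± 6.43 to 739.1 ± 5.91 CPM (SD, n = 2), a small relative increase (log2 fold change 0.55, SE 0.0234) on a high level. Trim30a, a regulator of Toll-like receptor signalling, had 1333 and 1116 against 1539 and 1621 counts (log2 fold change 0.27, SE 0.0525, adjusted p = 7.14e-05). Ifi44 had 24 and 25 against 49 and 37 counts (log2 fold change 0.72, adjusted p = 0.0632), and passed without Tumor 2 (0.99, adjusted p = 0.0142), with raw totals (adjusted p = 0.0425), with at least 10 counts in every library (adjusted p = 0.0400) and under scaling on AM identity genes (1.15).

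Ifi35, which modulates RNA sensor signalling, had 373 and 340 against 319 and 402 counts (log2 fold change -0.09, adjusted p = 0.503), which turned to 0.35 and passed under scaling on AM identity genes. Parp14, an ADP-ribosyltransferase, had 1573 and 1326 against 1165 and 1510 counts (log2 fold change -0.22, SE 0.0568, adjusted p = 0.00200), a call that was lost without Tumor 1 (adjusted p = 0.0572). Lgals3bp, a secreted galectin ligand, had 3582 and 3007 against 2942 and 3383 counts (log2 fold change -0.16, SE 0.0346, adjusted p = 0.000360). Both small decreases turned into called increases under that scaling, of 0.22 for Parp14 and 0.28 for Lgals3bp. Of the 6 members called lower, Eif2ak2 and Gbp5 were called lower under either scaling.

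**Figure D3:**
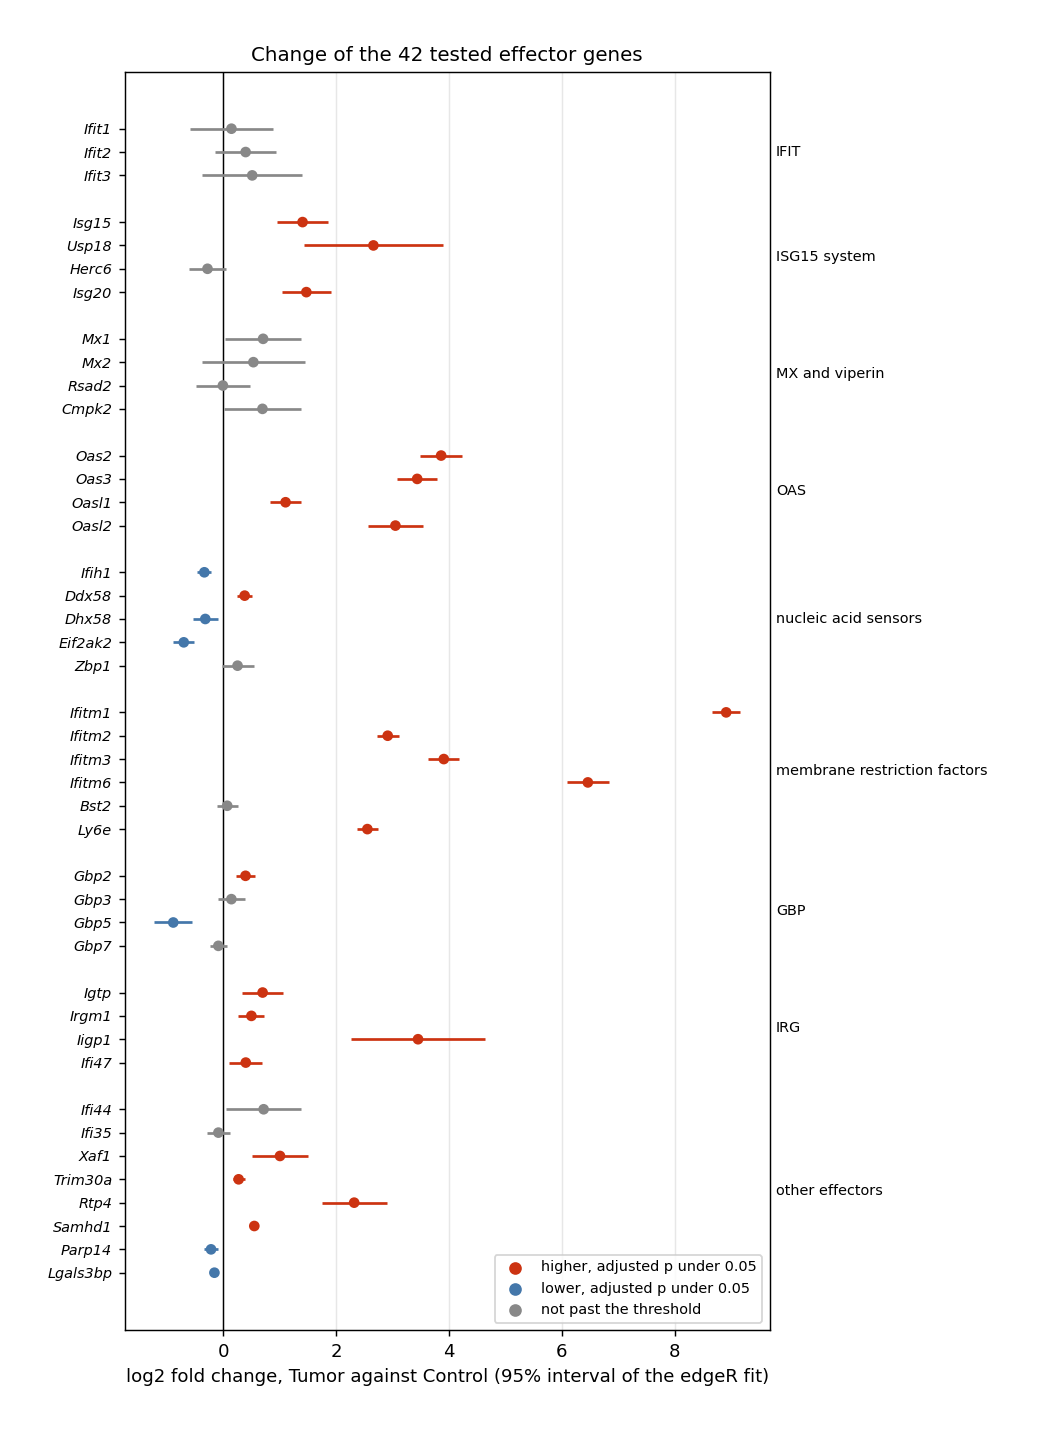
Log2 fold change of the 42 tested members, Tumor against Control (x axis), with the 95% interval of the edgeR fit as bars and genes by role group on the y axis (Usp18 and Iigp1 at their fitted values, although their Control levels were at or under the floor), in red where higher and blue where lower at an adjusted p under 0.05. Ifitm1 (8.91) and Ifitm6 (6.46) lie farthest right, the IFIT, MX and viperin genes are grey with intervals that reach up to 1.45, and of the blue genes Ifih1, Dhx58, Parp14 and Lgals3bp change sign when the libraries are scaled on AM identity genes.

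The order of the members by level per length changed between the groups. In Control it was led by Lgals3bp (67.0 CPM per kilobase), Samhd1 (55.2), Bst2 (27.9) and Trim30a (17.2), all in CPM per kilobase. In Tumor it was led by Ifitm1 (143), Ifitm2 (85.6), Samhd1 (80.8), Lgals3bp (60.1), Ifitm3 (54.0) and Ifitm6 (45.7), in the same unit. Of the net rise in summed CPM of all members, Samhd1 made up 38.1% and Ifitm1 25.4%, followed by Ly6e (7.98%), Ifitm2 (7.90%), Ifitm6 (6.65%) and Ifitm3 (5.55%). The rise in the sum was thus carried mostly by an abundant gene with a small fold change and by the IFITM genes with large ones.

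Other genes of the interferon pathway were set beside the members, in lists that cover ligands, receptors, regulators and further targets. These lists, too, were chosen with earlier results of these data known. Of 89 such genes tested, 38 were higher (42.7%, against 29.0% of all genes) and 25 lower (28.1%, against 24.8%), with a median log2 fold change of 0.07. Among the ligands, 8 of 11 were at 0 counts in all libraries and 0 could be tested. Ifnb1 had 2, 0, 0 and 2 counts in Control 1, Control 2, Tumor 1 and Tumor 2. Ifng had 0, 0, 0 and 1 counts, and Ifnk, an epithelial interferon, had 12, 6, 5 and 5 counts. The other 10 of these 11 ligand transcripts were therefore at or below the floor in every library, which says nothing of interferon genes outside the list, of protein or of other cells in the lung.

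Of the 11 receptor and JAK-STAT genes described here, 9 were higher (81.8%, against 29.0% of all genes) and 1 lower (9.09%, against 24.8%), and under scaling on AM identity genes all 11 were higher, against 65.9% of all genes. The type I receptor chains Ifnar1 (1106 and 997 against 1662 and 1814 counts) and Ifnar2 (497 and 383 against 884 and 978 counts) had log2 fold changes of 0.63 and 0.99. For the interferon gamma receptor the values were 0.86 for Ifngr1 and 0.19 for Ifngr2. Ifnlr1, the lambda-specific chain, was at 0 counts in both Control libraries and at 35 and 25 in Tumor, at least 6.70-fold higher than the floor. Its partner Il10rb did not pass (log2 fold change 0.06, adjusted p = 0.569). Jak2, the kinase of the interferon gamma receptor, rose by 1.32 and Jak1 by 0.34 on the log2 scale.

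Irf9 and Stat2, which act together downstream of the type I receptor, were both higher. Irf9 had 261 and 298 counts in Control and 609 and 662 in Tumor (log2 fold change 1.08, SE 0.106, adjusted p = 1.00e-09). Stat2 had 608 and 541 against 690 and 741 counts (log2 fold change 0.22, adjusted p = 0.0177). Tyk2, a kinase of the type I receptor, had 2643 and 2220 against 2075 and 2517 counts (log2 fold change -0.18, SE 0.0414, adjusted p = 0.000500), while under scaling on AM identity genes it turned higher (0.26). Irf7, the amplifier of interferon alpha transcription and itself a target of the pathway, had 73 and 77 against 328 and 385 counts (log2 fold change 2.15, SE 0.145, adjusted p = 4.21e-13). It was the regulatory factor with the largest change of the 7 tested. Of these, 3 were higher (42.9%, against 29.0% of all genes) and 3 lower (42.9%, against 24.8%). Under scaling on AM identity genes 6 were higher and 1 lower, beside 65.9% and 6.08% of all genes. Irf1, the main regulator downstream of interferon gamma, had 2862 and 2319 against 2296 and 2677 counts (log2 fold change -0.16, adjusted p = 0.00133), turning to 0.28 under that scaling.

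Among 12 genes that lead from nucleic acid sensing to interferon transcription, 8 were lower (66.7%, against 24.8% of all genes) and 1 was higher (8.33%, against 29.0%). Mb21d1, which encodes the DNA sensor cGAS, had 383 and 343 counts in Control and 135 and 146 in Tumor (log2 fold change -1.47, SE 0.122, adjusted p = 3.88e-11). Ikbke, a kinase that activates IRF3 and IRF7, had 745 and 672 against 304 and 358 counts (log2 fold change -1.20, SE 0.0859, adjusted p = 1.57e-12). Under scaling on AM identity genes, which called 6.08% of all genes lower and 65.9% higher, 4 of the 12 were lower and 6 higher. Of 5 negative regulators 2 were higher (40%, against 29.0% of all genes) and 2 lower (40%, against 24.8%). Socs1, an inhibitor of JAK kinases, had 25 and 12 against 47 and 51 counts (log2 fold change 1.31, SE 0.330, adjusted p = 0.00137). Under that scaling all 5 were called higher, against the same 65.9% of all genes.

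**Figure D4:**
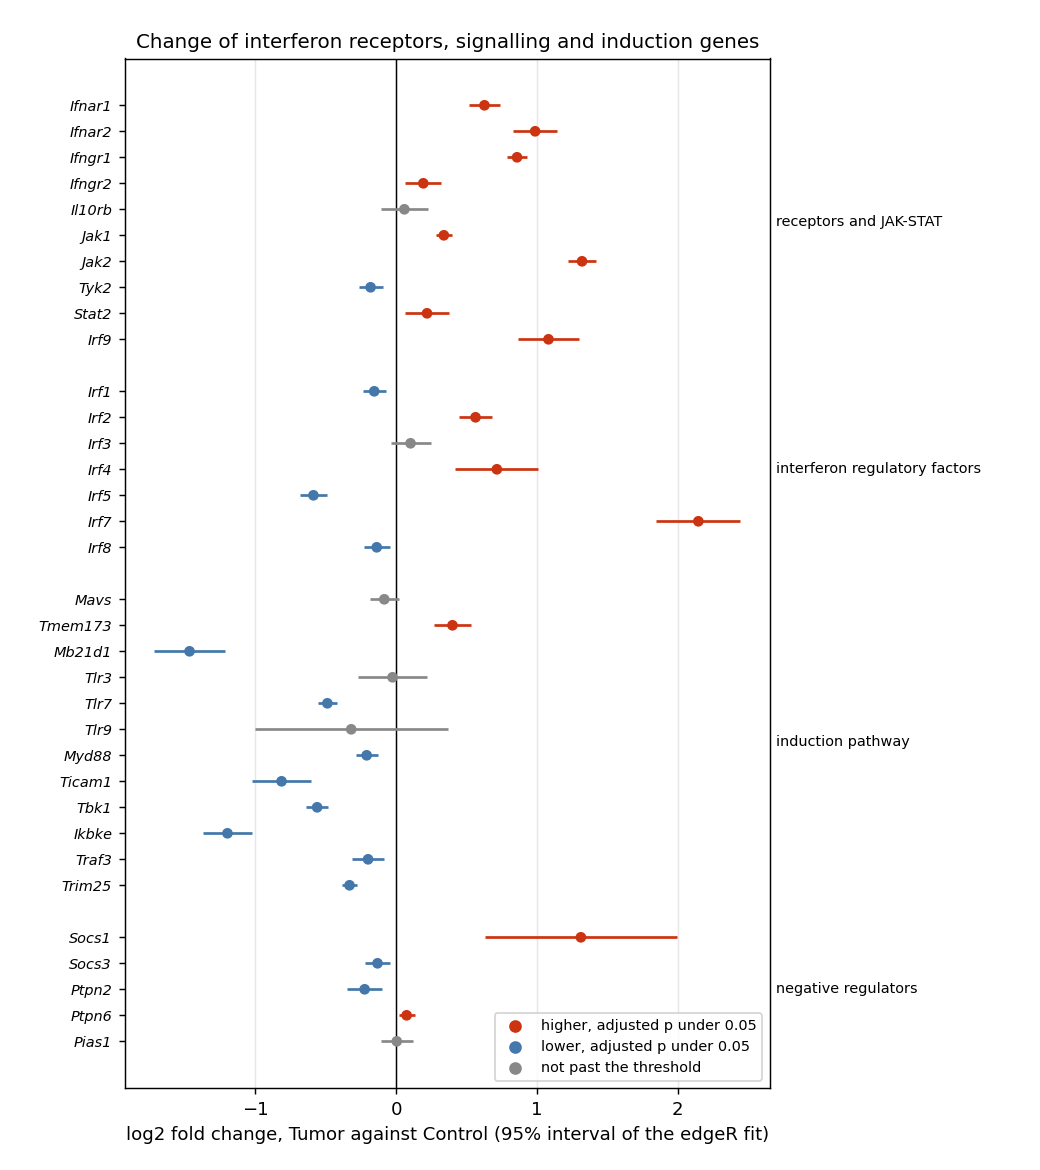
Log2 fold change, Tumor against Control (x axis), with the 95% interval of the edgeR fit as bars, for genes of the receptor, JAK-STAT, regulatory factor, induction and negative regulator lists on the y axis, without Ifnlr1, which had 0 counts in Control. Irf7 (2.15), Jak2 (1.32) and Irf9 (1.08) lie to the right, Mb21d1 (-1.47) and Ikbke (-1.20) to the left, and the small negative values of Tyk2 and Irf1 turn positive when scaled on AM identity genes.

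Of 53 further interferon-stimulated genes tested, 23 were higher (43.4%, against 29.0% of all genes) and 10 lower (18.9%, against 24.8%), and 10 rose by 2-fold or more (12.9% of all genes did so). Under scaling on AM identity genes 41 were higher and 3 lower, and 16 changed sign, beside 65.9% of all genes higher and 6.08% lower. The largest change was in Slfn1, a Schlafen family gene, at 11 and 9 counts in Control and 535 and 620 in Tumor (log2 fold change 5.74, SE 0.183, adjusted p = 1.58e-20). Slfn5 of the same family had 54 and 47 against 289 and 259 counts (log2 fold change 2.35). Slfn2 of that family, at 14592 and 12267 against 8030 and 9080 counts, was lower (log2 fold change -0.75, and -0.31 under scaling on AM identity genes). Slfn9 was lower too (-0.68), though not called under that scaling (-0.24), and Slfn8 did not pass under either. The guanylate-binding genes Gbp4 and Gbp9 had log2 fold changes of 2.42 and 1.75, and Ms4a6b, a tetraspan membrane protein, had 1.90. Ly6c2, a monocyte surface antigen, rose by 2.46 on the log2 scale with spread within both groups, at 2 and 7 against 14 and 41 counts. The chemokine Cxcl10, a widely used readout of interferon signalling that was singled out after its value was seen, had 545 and 466 counts in Control and 165 and 201 in Tumor (log2 fold change -1.56, SE 0.106, adjusted p = 4.20e-13). It was the 1 gene of this list lower by 2-fold or more, and remained lower under scaling on AM identity genes (-1.12). High Tumor values of Slfn1, Irf7 and the OAS and IFITM genes thus stood beside a lower Cxcl10 and Rsad2 and Ifit1 values that overlapped between the groups.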

How the data were processed

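RNA of AMs from 2 Control and 2 Tumor samples was sequenced after library preparation with a kit that does not mark strand (NEBNext Ultra RNA). The authors deposited 1 table of whole-number counts per gene with coordinates and gene length. HISAT2 2.0.5 and DESeq2 (no version) are named in the submitters' processing notes, and the handling of reads that match several genes was not given in the sources used here. The coordinates are those of GRCm38, identical to GENCODE M21 for 98.3% of the 54495 gene IDs found there. All 4 count columns were mapped by name to samples and 0 columns of per-sample values were unused.

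Counts were fitted with edgeR 4.0.16 (glmQLFit and glmQLFTest, TMM factors, R 4.3.3) after filterByExpr with a minimum count of 10, which left 14256 genes, and p-values were adjusted by the Benjamini-Hochberg method over all of them with a threshold of 0.05. All tests were two-sided. The SE was obtained as the size of the log2 fold change over the root of F. For genes whose mean Control count was at or below the floor of 3, a bound or a ratio of single libraries is given in place of the fitted fold change. Intervals and floors cover counting and replicate error of these libraries. On simulated counts, run on 54532 genes with 200 changed among 14106 tested, 96.5% of changed genes were recovered and 1.03% of calls were false. Recovery and false calls were not tested at the share called in the data, where 7671 of 14256 genes were called. Alternatives were DESeq2 size factors and its Wald test (DESeq2 1.42.0), raw totals, scaling on AM identity genes, other filters, limma-voom (limma 3.58.1), a replicate block, a fold threshold and leaving out each library.

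The members and gene lists were chosen with earlier results of these data known. Per-library counts were due for the called member with the largest change and the member with the highest per-length Control level in each role group, and for members at 3 counts or fewer or untested. Pathway genes were named when receptor chains, Stat2, Irf9, Irf1 or Irf7, or when called with a log2 fold change of at least 1 in size, up to 6 a list. Of 113 listed pathway genes 111 had a row in the table, and 1 listed gene is not reported here.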

Additional observations from a re-analysis of the deposited data

How the results depend on the processing

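Of the 42 tested members, directions and calls were the same for all under DESeq2 size factors, limma-voom and no filter. Scaling on the AM identity genes raised the called share that was higher from 53.9% to 91.6% of 10262 genes, left 2 members lower in place of 6 and 33 higher in place of 22, beside 65.9% of all genes higher, and gave 70 pathway genes higher and 8 lower in place of 38 and 25. It reversed 8 members, to log2 fold changes of 0.16 (Herc6), 0.43 (Rsad2), 0.10 (Ifih1), 0.12 (Dhx58), 0.35 (Gbp7), 0.35 (Ifi35), 0.22 (Parp14) and 0.28 (Lgals3bp). The scaling moved the median of all genes by 0.44, and the main values of these 8 lay between -0.34 (Ifih1) and -0.01 (Rsad2). Requiring a log2 fold change of at least 1 left 2268 genes in place of 7671, of which 81.1% were higher, 0 members lower, and 15 pathway genes higher and 3 lower. Rsad2 changed sign to 0.060 with raw totals, which made 62.7% of calls higher, and to 0.018 with at least 10 counts in every library. Leaving out 1 library gave -0.081 to 0.075 for Rsad2, -0.36 to 0.54 for Ifit1 and -0.69 to 0.062 for Herc6, where the remaining library of a group was assumed to vary like the other group. Dhx58 lost its call with raw totals (adjusted p = 0.0548) and by the DESeq2 Wald test.

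Samples with the same replicate number did not deviate together (correlation -0.00278), so the numbers were not taken as pairs. With the replicate number as a block, 7446 genes were called, with 23 members higher and 6 lower, and 37 pathway genes higher and 25 lower.

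For Ifit3b, Ifit1bl1, Oas1a and the ligands a change was not detectable at the counts found, and the part of reads shared between paralogs in the low counts was not tested.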

Other observations

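Neighbours of the members that are not members were at low counts or moved little. Between Ifitm1 and Ifitm3 on chromosome 7 lies Gm7514, which had 1 and 0 counts in Control and 2 and 13 in Tumor, while the genes on either side rose. In the Ifit cluster on chromosome 19, Ifit1bl2 had 0 and 0 counts in Control and 9 and 12 in Tumor, too few for the test, and was the gene of that cluster with reads in Tumor alone. Gbp2b, between Gbp3 and Gbp2, had 459 and 346 against 457 and 586 counts (log2 fold change 0.28, adjusted p = 0.0139). Beside Oas2 and Oas3, Oas1c had 22 and 21 against 33 and 27 counts (log2 fold change 0.38, adjusted p = 0.395) and Oas1b had 14 and 10 against 27 and 21 counts (log2 fold change 0.91, adjusted p = 0.0823), and neither passed. These neighbours were chosen for their position.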
